A study of Rattus norvegicus with 8 samples.

Results

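Schwann cells are the glia of peripheral nerve, and 8 genes that they express were followed in the rat Achilles tendon: Sox10, Cdh19, Egfl8, S100b, Mbp, Pmp22, Prx and Mag. The genes were chosen by symbol, all 8 had a row among the 15590 genes of the table, and 7 passed the filter on low values. Polyadenylated RNA had been sequenced from right Achilles tendons of 8 wild-type male Sprague-Dawley rats. In the 0 h p.r. (post-running) group, 4 rats ran uphill for 1 h on a treadmill and were killed at once, and the 4 naïve controls (NC) kept to cage activity and did not run. Blown air kept the rats moving, and those that left the belt received weak shocks. The controls were killed at the time of a later post-run group. The run itself, its prompting and the time of killing therefore cannot be told apart.

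Small nerve branches enter the tendon through its sheath, and their axons are wrapped either in myelin or, several together, in the troughs of non-myelinating Schwann cells. SOX10 is the transcription factor that sets the Schwann cell lineage and, with EGR2, switches on the genes of the myelin sheath. The sheath is compacted by proteins such as PMP22 and MBP, is anchored to its basal lamina through periaxin (PRX) and faces the axon through the adhesion molecule MAG. Loss of nerve contact shifts these cells from myelin genes toward JUN, growth factors and chemokines.

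Values are FPKM (fragments scaled for gene length and for library depth), which allow levels of different genes to be compared per length. The groups were compared with limma on log2(FPKM + 0.5), and p-values were adjusted for all 13863 genes in the test by the Benjamini-Hochberg method. To be called, a gene needed a fold of 2 or more besides an adjusted p under 0.05, and 2.70% of these genes met both. The libraries held 11350560 to 17897056 reads in the listed genes. The share of mitochondrial genes was 31.1% of all FPKM for NC replicate 2, and it was 16.3% to 21.9% for the other 7 libraries. The summed FPKM of 10 skeletal muscle markers ran from 1178 to 39056 within 0 h p.r., against 4811 to 8525 in NC. The tissue showed its tendon fibroblast markers, whose summed FPKM was 7629 to 13353 in NC and 10803 to 22391 in 0 h p.r.

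None of the 7 tested genes was called in limma, and none was called by limma's voom on recovered reads. S100b encodes a calcium-binding protein of Schwann cells that fat cells and cartilage cells also express. It was lower in 3 of 4 post-run libraries than in any control, at 0.585-fold. Pmp22, which fibroblasts also express, stood at 1.38-fold, with 3 of 4 post-run libraries above its narrow control range. Sox10 and Egfl8 stood at 1.27-fold and 1.29-fold of the control level and Mbp and Prx at 0.813-fold and 0.857-fold, and these 4 differences did not pass the test either. At an unadjusted p under 0.05 there were 2 of the 7, S100b and Pmp22, where 22.6% of all tested genes lay. At an adjusted p under 0.05 at any fold there were 0 of 7, against 5.72% of the tested genes. The groups overlapped for all 8 genes, while they were apart for 15.6% of the tested genes (8.15% with the post-run libraries higher and 7.47% with them lower). The median log2 fold change of the 7 was -0.18, and that of all tested genes was -0.0014.

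**Figure D1:**
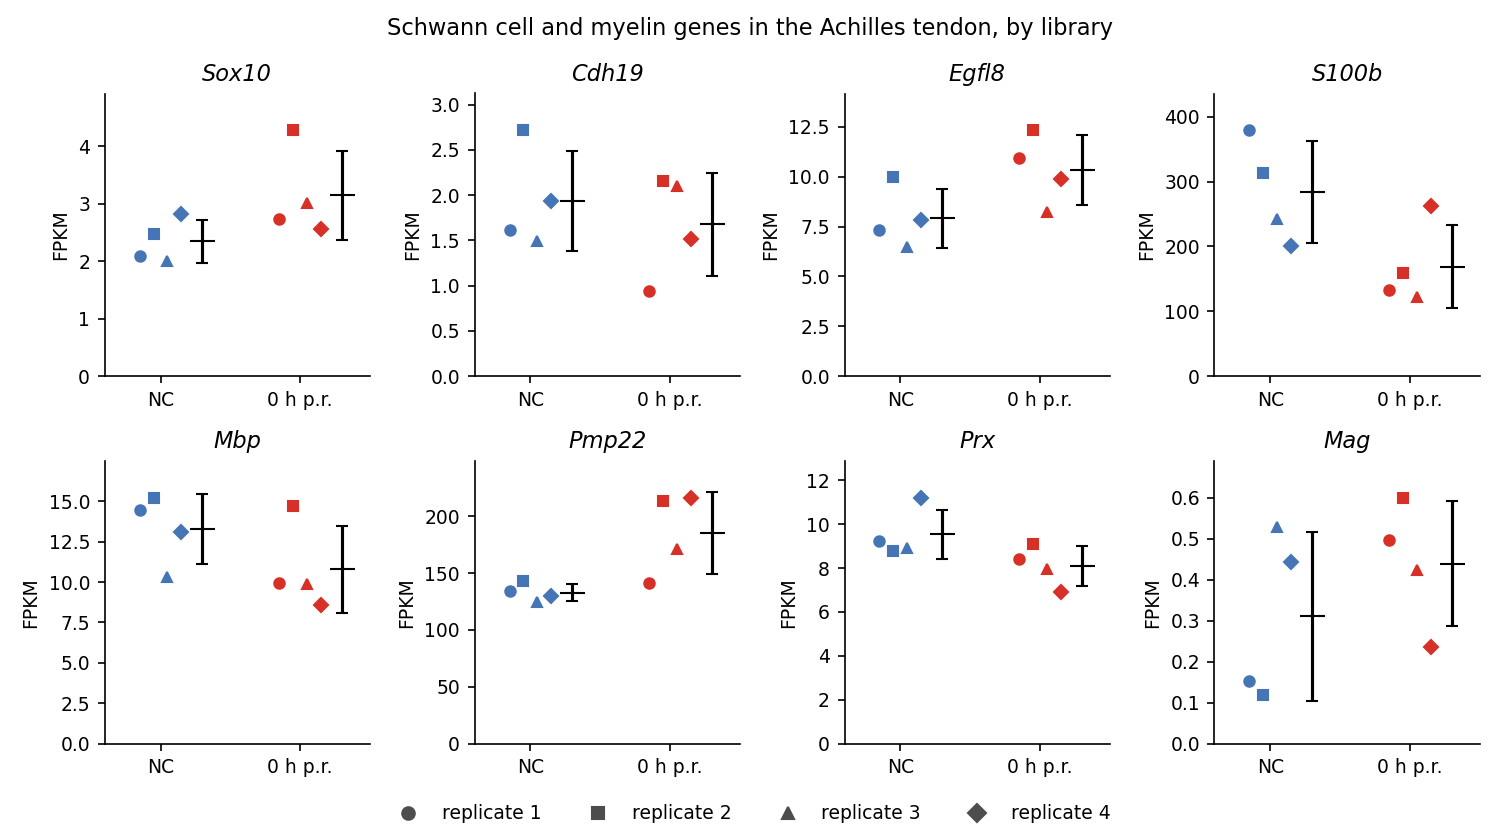
FPKM of the 8 genes in each library (vertical axes start at 0), with 4 NC and 4 0 h p.r. libraries as points marked by replicate and the mean ± SD as a bar at the right of each group. The groups overlap in every panel, and 3 of 4 post-run libraries lie outside the control range for S100b, Mbp and Prx (below) and for Pmp22 (above).

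By level, the genes fell into tiers. S100b averaged 226 FPKM over the 8 libraries and Pmp22 159 FPKM, above 97.7% and 96.9% of the tested genes. Mbp averaged 12.03 FPKM, Egfl8 9.12 and Prx 8.81. Sox10, at 2.75 FPKM, and Cdh19, at 1.81, lay above 22.2% and 15.02% of the tested genes, and Mag averaged 0.375. Neighbours in this order did not always keep their places. S100b exceeded Pmp22 in 5 of 8 libraries, Mbp exceeded Egfl8 in 6, Egfl8 exceeded Prx in 5 and Sox10 exceeded Cdh19 in 7, so these pairs are not separated by their spread. Pmp22 lay above Mbp, Prx above Sox10 and Cdh19 above Mag in 8 of 8 libraries. The ratio of S100b to Sox10 ran from 37.1 to 181 over the libraries.

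Whether the label of Schwann cells fits was examined on other markers. Ncmap, of the non-compact peripheral myelin sheath, was present at 6.59 ± 1.498 FPKM in the controls (SD, n = 4). The neuregulin receptor gene Erbb3, which Schwann cells need to survive, was at 1.73 ± 0.369 FPKM in the same rats. The oligodendrocyte gene Mog held 5 to 15 reads per library and stayed under the filter. At 0.452 ± 0.177 FPKM in the controls, Mog was not below Mag (0.311 ± 0.206). Values this low do not tell oligodendrocytes from Schwann cells. Mobp, Olig2, Opalin and Ermn of the same oligodendrocyte list were not analysed here. The melanocyte gene Mlana, of another SOX10-dependent lineage, held 1 to 15 reads. Of the same list Pmel was at 0.943 ± 0.340 FPKM in the controls and passed the filter, as did Mitf, which many other cells also express, at 4.301 ± 1.42 FPKM, above Sox10. On the Schwann cell side, the peripheral myelin gene Pmp2 and the connexin genes Gjb1 and Gjc3 lay under the filter, Pmp2 with 1 to 8 reads. In bulk tissue, fewer Schwann cells and less RNA per Schwann cell cannot be told apart.

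Sox10 (ENSRNOG00000011305) was at 2.099, 2.47, 2.00 and 2.82 FPKM in NC and at 2.73, 4.28, 3.01 and 2.56 in 0 h p.r. The post-run replicate 2 stood highest and the groups overlapped, 2 post-run libraries lying above all controls. The log2 fold change was 0.34 (SE 0.18, limma adjusted p 0.301), with a 95% confidence interval of -0.063 to 0.75. A rise beyond 1.68-fold and a fall beyond 0.957-fold therefore lay outside the interval. Each value rested on 74 to 235 reads.

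Cdh19 (ENSRNOG00000029841), a cadherin of Schwann cell precursors and their descendants, was at 1.62, 2.72, 1.49 and 1.93 FPKM in NC and at 0.943, 2.16, 2.099 and 1.51 in 0 h p.r. Post-run replicate 1 was the lowest library and NC replicate 2 the highest, and the rest were mixed. Its log2 fold change was -0.18 (SE 0.24, limma adjusted p 0.730). Without 0 h p.r. replicate 1, the library with the most muscle RNA, it was 0.0065.

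Egfl8 (ENSRNOG00000000436) encodes an EGF-like secreted protein found in Schwann cells of peripheral tissue. It was at 7.35, 9.96, 6.48 and 7.85 FPKM in NC and at 10.9, 12.3, 8.21 and 9.88 in 0 h p.r. Only NC replicate 2 reached the post-run range, since the other 3 controls lay below all post-run libraries. The log2 fold change was 0.37 (SE 0.17, limma adjusted p 0.235, 95% confidence interval -0.011 to 0.74).

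S100b (ENSRNOG00000001295) had the largest difference of the 8. It was at 379, 314, 242 and 201 FPKM in NC and at 133, 159, 122 and 262 in 0 h p.r., so only post-run replicate 4 lay within the control range. The log2 fold change was -0.77 (SE 0.28, limma adjusted p 0.141), with a 95% confidence interval of -1.40 to -0.14, or 0.378-fold to 0.906-fold. It was called only without 0 h p.r. replicate 4, at a log2 fold change of -1.01 and a limma adjusted p of 0.0377. In the 7 fits that left out another library the adjusted p was 0.120 to 0.320.

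Fat cells and cartilage cells also express S100b, so their markers are given beside it. The 12 adipocyte markers summed to 6888, 5730, 3493 and 3358 FPKM in NC and to 1134, 1629, 1994 and 2482 in 0 h p.r. Within NC the libraries had the same order for S100b and for this sum, and within 0 h p.r. replicate 4 was highest for both. The other post-run libraries had a different order, replicate 3 being second in the sum and lowest in S100b. All 12 adipocyte genes were tested and lower in 0 h p.r., 7 of them past both thresholds, where 0.894% of the tested genes were called lower. The largest falls were those of the lipid droplet gene Cidec (log2 fold change -2.41, limma adjusted p 0.0270) and the leptin gene Lep (-2.37, adjusted p 0.0286). With 1 library left out, the Cidec call was lost in 4 of 8 fits (adjusted p up to 0.0785, for 0 h p.r. replicate 2) and the Lep call in 6 of 8 (up to 0.0857, for NC replicate 1). The cartilage markers summed to 19.6 to 109 FPKM in NC and 113 to 427 in 0 h p.r. None of the 7 tested was called or had an adjusted p under 0.05, 6 being higher by their log2 fold change and 1 lower. Among these, Col2a1 and Col10a1 differed most (log2 fold changes 2.75 and 2.39, limma adjusted p 0.161 and 0.228). NC replicate 2, at 0.934 FPKM of Col2a1 and with Col10a1 listed at 0, bore on the size, and the log2 fold changes were 1.76 and 1.25 without it. The part of fat cells or cartilage in the S100b value was not tested.

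**Figure D2:**
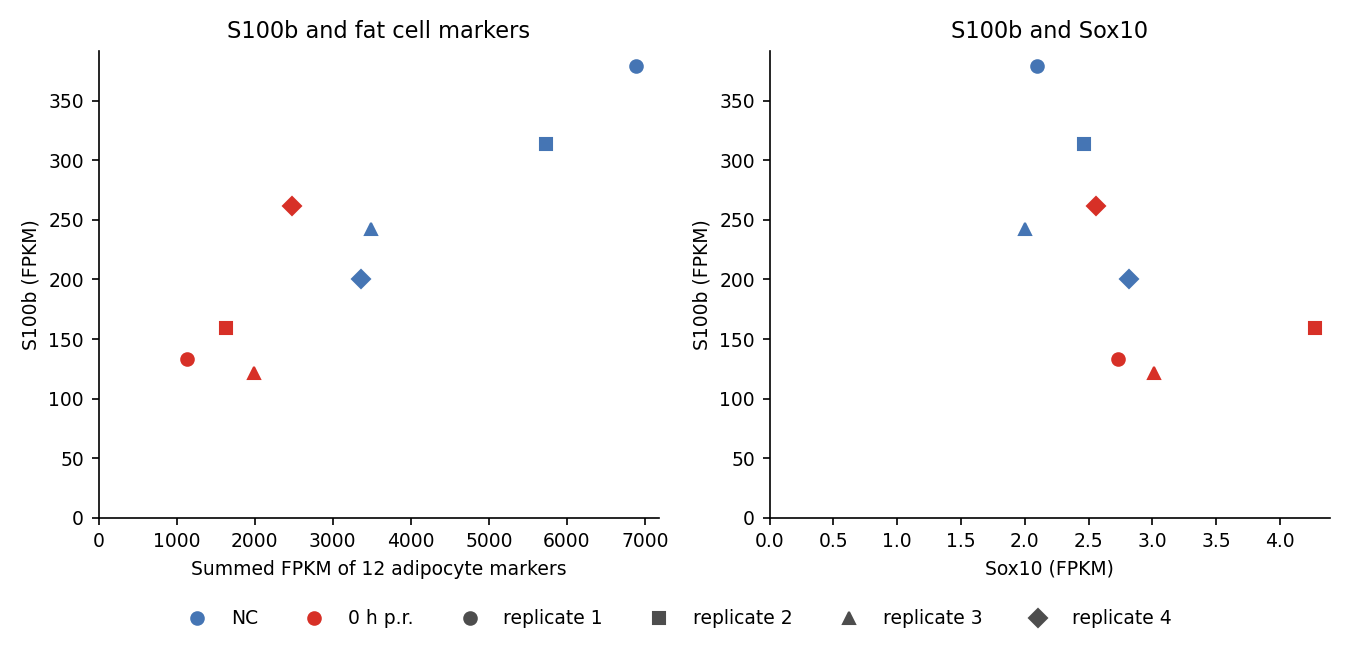
S100b FPKM (vertical axes) in the 8 libraries against the summed FPKM of 12 adipocyte markers (left) and against the FPKM of Sox10 (right), NC in blue and 0 h p.r. in red, one symbol per replicate. S100b is highest in the 2 controls with the most adipocyte RNA (379 and 314 FPKM), and in Sox10 those libraries lie at 2.099 and 2.47 FPKM, below all 4 post-run values.

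Mbp (ENSRNOG00000016516) encodes myelin basic protein, which seals the inner faces of the myelin membrane, and its locus also makes transcripts from an upstream start that the gene value does not separate. It was at 14.5, 15.2, 10.3 and 13.1 FPKM in NC and at 9.95, 14.7, 9.91 and 8.60 in 0 h p.r. Post-run replicate 2 stayed at the control level and the other 3 post-run libraries lay below all controls. The log2 fold change was -0.30 (SE 0.19, limma adjusted p 0.388, 95% confidence interval -0.72 to 0.12).

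Prx (ENSRNOG00000018369) encodes periaxin, which links the outer Schwann cell membrane to the dystroglycan complex and is also made by endothelial cells. It was at 9.23, 8.77, 8.92 and 11.2 FPKM in NC and at 8.41, 9.09, 7.98 and 6.92 in 0 h p.r. Again 3 post-run libraries lay below all controls and replicate 2 did not. The log2 fold change was -0.22 (SE 0.13, limma adjusted p 0.361). Prx varied least of the 8, with a within-group SD of 0.16 on the log2 scale, lower than for all but 16.1% of the tested genes, so its interval of 0.699-fold to 1.05-fold was the narrowest.

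Pmp22 (ENSRNOG00000003338), a membrane protein of compact myelin that fibroblasts also express, was at 134, 143, 124 and 130 FPKM in NC and at 141, 214, 171 and 216 in 0 h p.r. The controls were close together, and post-run replicate 1 lay among them while the other 3 lay above. The log2 fold change was 0.46 (SE 0.16, limma adjusted p 0.124), with a 95% confidence interval of 0.10 to 0.82. With any single library left out, its limma adjusted p was 0.0732 to 0.292. The SD was 7.74 FPKM among controls and 36.0 FPKM among post-run rats.

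Mag (ENSRNOG00000021023) was under the filter, with 7, 3, 20 and 17 reads in NC and 17, 28, 14 and 11 in 0 h p.r. This gave a mean of 0.311 ± 0.206 FPKM for the controls and 0.439 ± 0.153 for the post-run rats (SD, n = 4). In the limma fit without the filter the log2 fold change was 0.23 (SE 0.21, adjusted p 0.578), and no difference was detectable at this depth.

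**Figure D3:**
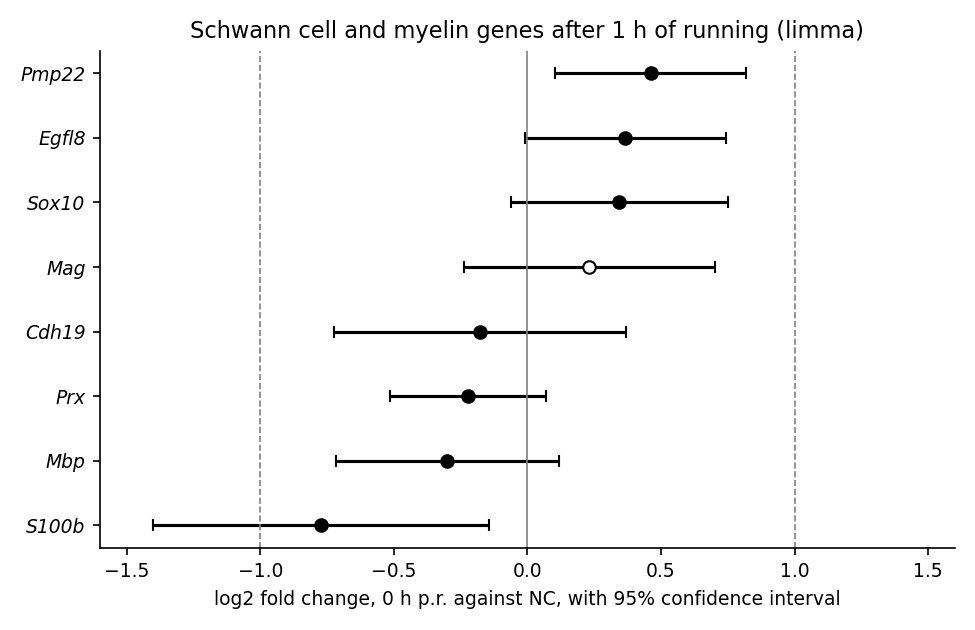
Log2 fold change of the 8 genes in 0 h p.r. against NC (limma, horizontal axis) with 95% confidence intervals, the dashed lines marking a fold of 2 in either direction and the open circle Mag, from the fit without the filter. The intervals of Pmp22 (0.10 to 0.82) and S100b (-1.40 to -0.14) leave out 0, and that of S100b reaches past a fold of 2.

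Pairs of the 8 genes were compared over the libraries. Over the 28 pairs, Pearson's r of the log2 values across the 8 libraries had a median of 0.11 and ran from -0.77 (S100b and Mag) to 0.74 (Sox10 and Egfl8, Spearman's rho 0.62). For comparison, the median r of each gene with all tested genes was -0.023 to 0.031. The top decile of that r began at 0.478 (Prx) to 0.730 (S100b), and at 0.487 for Mbp, 0.585 for Sox10 and 0.623 for Pmp22. These values are descriptions over 8 libraries that share depth, scaling and the difference between the groups. Mbp and Prx had an r of 0.66 (rho 0.67), Pmp22 and Sox10 of 0.67 (rho 0.52), and S100b and Sox10 of -0.64 (rho -0.74). With each group's mean removed, the r of Sox10 was 0.79 with Mbp and 0.76 with Prx, against 0.19 and 0.050 over all 8 libraries without that step. Over the 28 pairs the median r with the group means removed was 0.33, and 20 pairs were positive, where the median of each gene with all tested genes was -0.018 to 0.035.

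Since Sox10 stood a little higher and Mbp and Prx a little lower after running, each gene was set against the Sox10 value of its own library. The ratio of Mbp to Sox10 was 6.89, 6.17, 5.14 and 4.65 in NC and 3.64, 3.43, 3.29 and 3.36 in 0 h p.r. That of Prx to Sox10 was 4.40, 3.56, 4.46 and 3.98 in NC and 3.08, 2.13, 2.65 and 2.70 in 0 h p.r. Both ratios were lower in 4 of 4 post-run libraries than in any control, and those of the other 5 genes overlapped. This is a description with no test, and 11.3% of all tested genes had a ratio to Sox10 that was lower without overlap (12.8% in either direction).

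The result turned on the reference. Against Erbb3 both overlapped, with Mbp at 5.75 to 10.05 in NC and 5.73 to 8.76 in 0 h p.r., and Prx at 4.92 to 5.98 and 4.26 to 7.13. The ratio to Erbb3 was lower without overlap for 0.88% of the tested genes and apart in either direction for 6.64%. Erbb3 was taken as a reference after the data had been seen.

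**Figure D4:**
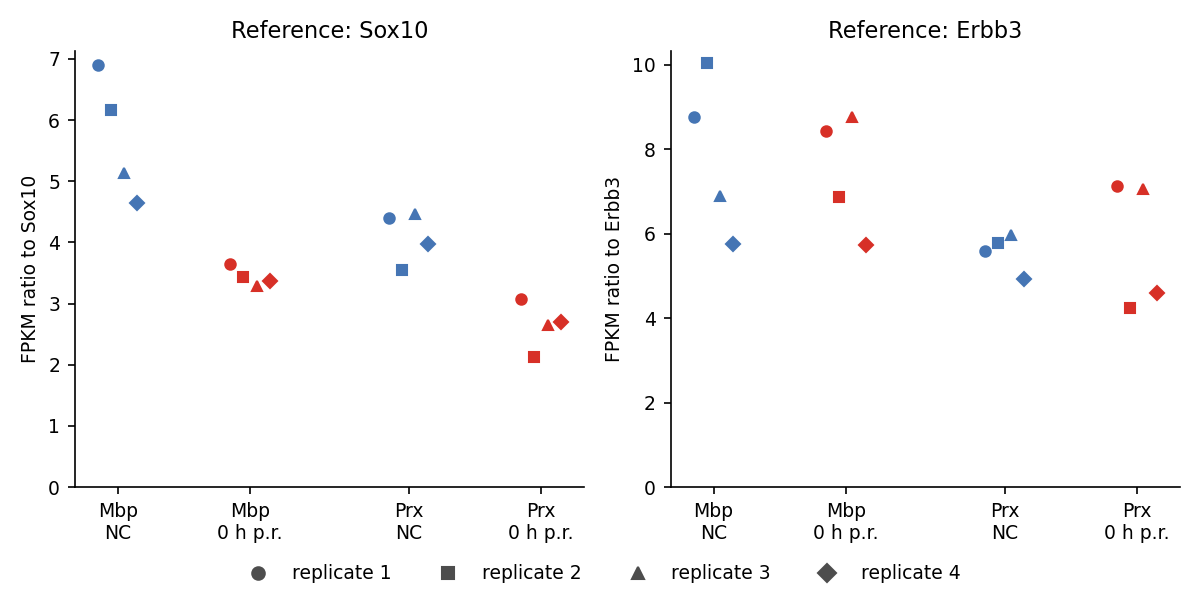
Ratio of the FPKM of Mbp and of Prx to the FPKM of Sox10 and of Erbb3 of the same library (vertical axes start at 0), 4 NC libraries in blue and 4 0 h p.r. libraries in red, one symbol per replicate. Against Sox10 the groups are apart for both genes (Mbp 4.65 to 6.89 and 3.29 to 3.64), and against Erbb3 they overlap for both.

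The start regions of Mbp, Prx and Egfl8 are shown because Mbp and Prx parted from Sox10 in this way and Egfl8 had the highest r with Sox10. Each runs from 250 bases before to 50 after the RefSeq start in GRCr8, 5′ to 3′ on the strand of the gene. Capitals mark a match to the SOX motif ACAAAG on either strand.
Mbp, chr18:78130402-78130701 (plus strand): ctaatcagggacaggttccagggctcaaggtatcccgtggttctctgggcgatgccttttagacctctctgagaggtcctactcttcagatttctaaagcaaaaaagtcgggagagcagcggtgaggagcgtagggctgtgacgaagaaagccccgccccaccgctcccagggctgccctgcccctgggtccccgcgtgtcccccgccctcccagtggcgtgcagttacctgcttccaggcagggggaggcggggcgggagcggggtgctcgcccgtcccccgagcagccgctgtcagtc
Prx, chr1:91914171-91914470 (plus strand): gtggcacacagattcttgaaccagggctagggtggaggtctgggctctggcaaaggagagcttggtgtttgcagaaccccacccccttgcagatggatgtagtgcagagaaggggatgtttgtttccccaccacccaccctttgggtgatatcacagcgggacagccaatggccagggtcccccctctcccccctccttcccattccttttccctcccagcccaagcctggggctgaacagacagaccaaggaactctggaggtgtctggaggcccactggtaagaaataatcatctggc
Egfl8, chr20:4137803-4138102 (plus strand): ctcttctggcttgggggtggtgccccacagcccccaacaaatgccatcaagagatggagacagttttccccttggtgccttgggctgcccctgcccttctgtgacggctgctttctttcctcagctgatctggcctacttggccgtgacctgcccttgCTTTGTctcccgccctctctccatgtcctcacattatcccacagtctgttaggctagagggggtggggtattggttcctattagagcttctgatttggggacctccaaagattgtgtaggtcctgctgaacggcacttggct

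Of the 8 genes, 7 had a start region in the table and Sox10 had none. ACAAAG was found in 2 of the 7, as its reverse complement in both, at position -92 from the start of Egfl8 and at -152 from that of Mag. The same letters stand in 18.3% of 27457 rat start regions of this length. ACAATG, another SOX motif, was in none of the 7, against 13.03% of all, and the EGR motifs GCGTGGGCG and GCGGGGGCG were in none, against 0.590% and 2.78%. A match in these windows is a description of the sequence only.

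Further genes of the Schwann cell and of myelin came from 8 lists on sheath, transcription factors, signals, junctions, basal lamina, lipids, non-myelinating cells and injury. Of 117 genes besides the 8, 108 had a row and 93 were tested. In limma 3 of the 93 were called, all higher in 0 h p.r., where 1.80% of all tested genes were called higher and 0.894% lower. These were Ezr, Ccl2 and Atf3. The median log2 fold change of the 93 was -0.024.

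None of the 10 tested genes of the myelin sheath was called, with 4 higher and 6 lower. Cnp, an enzyme of the non-compact sheath, was at 21.8, 21.9, 16.1 and 16.7 FPKM in NC and at 13.4, 14.9, 11.4 and 14.8 in 0 h p.r., below all controls in 4 of 4 libraries, with a limma adjusted p of 0.0989 (log2 fold change -0.47). Tspan2, a tetraspanin, was the other sheath gene without overlap (log2 fold change 0.64, limma adjusted p 0.0649), and the small heat shock gene Cryab, which muscle also makes, differed by -1.03 with an SE of 0.64 (adjusted p 0.389). The Cryab value was -0.43 without 0 h p.r. replicate 4 and -1.56 without 0 h p.r. replicate 1.

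Among 9 tested transcription factors 7 were higher and none was called. Egr2, the myelin regulator that is also an immediate-early gene of many cells, was at 1.65, 1.31, 2.66 and 2.18 FPKM in NC and at 2.95, 7.01, 3.60 and 6.51 in 0 h p.r. It lay above all controls in 4 of 4 libraries (log2 fold change 1.12, SE 0.29) at a limma adjusted p of 0.0563. Sox6, a factor of cartilage and muscle as well, had a log2 fold change of 1.06 (adjusted p 0.0630). Egr2 was called when 0 h p.r. replicate 1 was left out (adjusted p 0.0492) and under quantile scaling (0.0467), and Sox6 when 0 h p.r. replicate 4 was left out (0.0238). Nab2, the corepressor that binds EGR factors, had a limma adjusted p of 0.0322 at 0.61 on the log2 scale, under a fold of 2. That adjusted p was 0.0341 to 0.105 with 1 library left out. Of the axon signals and receptors, none of 12 was called, Prnp and S1pr3 differing most (log2 fold changes 0.38 and 0.36, limma adjusted p 0.181 and 0.133).

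Junction and node genes held one call in 11 tested. Ezr, which encodes ezrin of Schwann cell microvilli and of many other cell surfaces, averaged 13.2 ± 2.18 FPKM in the controls and rose to 32.2 ± 7.90 FPKM (SD, n = 4), above all controls in 4 of 4 libraries, with a limma adjusted p of 0.00928 at 1.24 on the log2 scale. With libraries scaled to their summed FPKM its adjusted p was 0.0956 and it was not called. The axonal adhesion genes Cntn2 and Cntn1 had log2 fold changes of -0.50 and -0.36 (limma adjusted p 0.154 and 0.490). The Cntn1 value was -0.14 without 0 h p.r. replicate 4 and -0.57 without 0 h p.r. replicate 3. The basal lamina list had no call, although 13 of its 15 genes were lower. Its largest differences were those of Nid1 (73.3 ± 11.7 and 44.5 ± 2.97 FPKM, log2 fold change -0.70, limma adjusted p 0.0220, under a fold of 2) and Lamb1 (-0.59, adjusted p 0.0630), proteins that vessels, muscle and fat also lay down. The limma adjusted p of Nid1 was 0.0132 to 0.0713 with 1 library left out. It was 0.0983 with the replicate block and 0.270 with scaling to summed FPKM.

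Of the lipid and cholesterol genes, which supply growing myelin and are active in most cells, none of 17 was called and 2 had an adjusted p under 0.05. Idi1 (log2 fold change 0.68, limma adjusted p 0.0187, and 0.0237 to 0.0753 with 1 library left out) and Cyp51 (0.55, adjusted p 0.0476), of cholesterol synthesis, stayed under a fold of 2. Dhcr7 of the same pathway and Fasn, the fatty acid synthase gene that fat cells use heavily, differed most (log2 fold changes -1.21 and -0.93, limma adjusted p 0.0910 and 0.235). Dhcr7 was called when 0 h p.r. replicate 4 was left out (-1.45, adjusted p 0.0446). Fasn was at 92.2 FPKM in NC replicate 1 and at 21.1 to 40.96 in the other controls, and its log2 fold change was -0.53 without that library (adjusted p 0.436).

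Among 13 genes of non-myelinating and immature Schwann cells none was called and the median log2 fold change was -0.0040. Ncam1 and Chl1, adhesion molecules of these cells, differed most (log2 fold changes -0.69 and -0.64, limma adjusted p 0.227 and 0.159). In the injury list 2 of 6 tested genes were called. The chemokine gene Ccl2 averaged 8.11 ± 4.71 FPKM in the controls and rose to 77.4 ± 17.8 FPKM, by 3.33 on the log2 scale (limma adjusted p 0.00294). The stress factor gene Atf3 averaged 10.1 ± 6.66 FPKM in the controls and rose to 58.5 ± 11.99 FPKM, by 2.70 on that scale (limma adjusted p 0.0117), and both lay above all controls in 4 of 4 libraries. Both genes are used by many cell types, and the table does not say which ones held these transcripts. Tnc and Jun were not called (log2 fold changes 0.53 and 0.52, limma adjusted p 0.245 and 0.118), and Gdnf, Artn, Runx2 and Lif were under the filter.

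**Figure D5:**
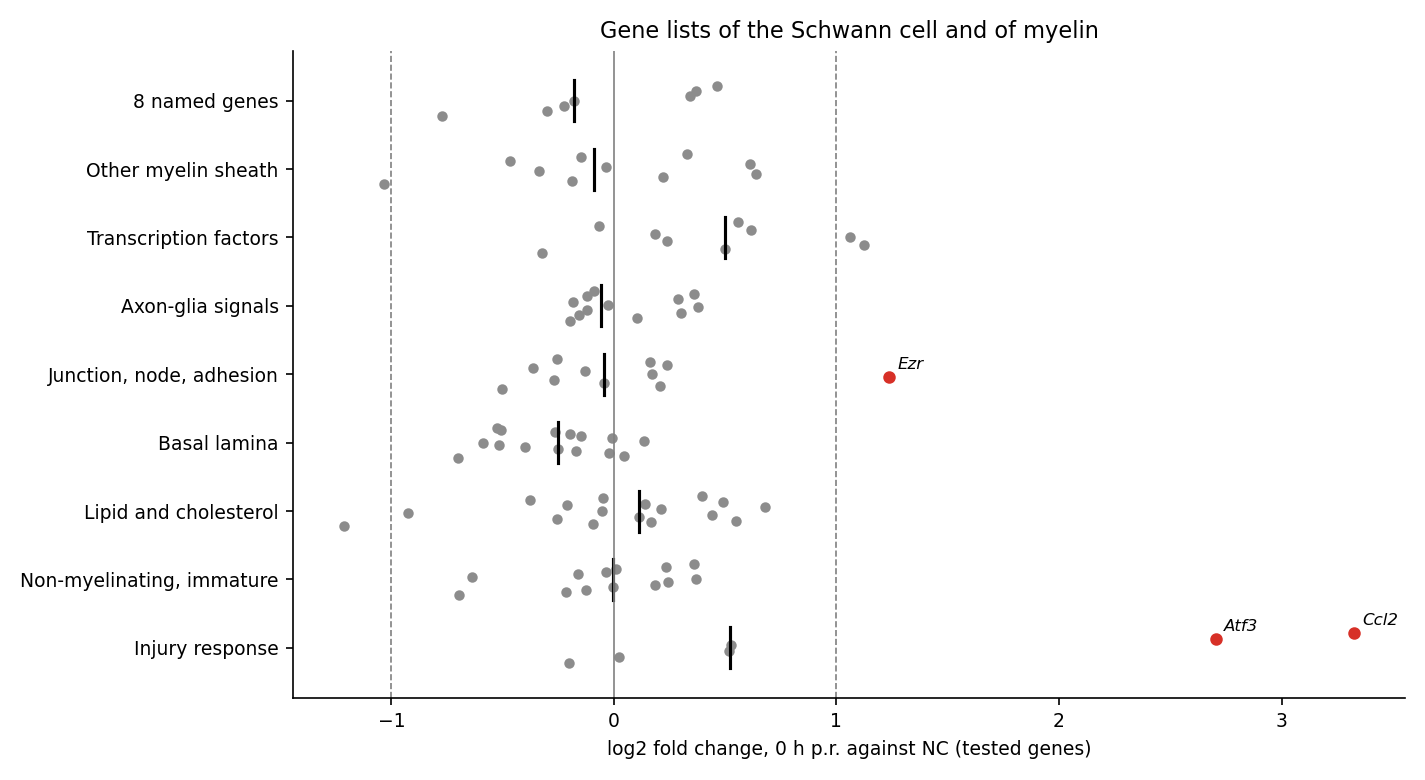
Log2 fold change in 0 h p.r. against NC (horizontal axis) of the tested genes of each list, one point per gene with a vertical offset only for legibility, the black bar the median, red points the genes called in limma and dashed lines a fold of 2. The 3 red points are Ezr, Atf3 and Ccl2, and the median of the 8 named genes, of which 7 were tested, is -0.18.

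Markers of cells that lie next to Schwann cells were read in the same fit. Of the 4 tested perineurial markers, 1 was called higher and 1 lower, where 1.80% and 0.894% of all tested genes were. The glucose transporter gene Slc2a1 rose (log2 fold change 1.73, limma adjusted p 0.00227). The tight junction gene Cldn1 fell (-1.32, limma adjusted p 0.0299), and the other 2 tested were not called. Which cells held the Slc2a1 and Cldn1 transcripts was not tested. The call of Cldn1 was lost in 5 of 8 fits on 7 libraries, with an adjusted p of up to 0.0927 when NC replicate 1 was dropped. Of the 6 tested axon markers 3 were higher and 3 lower. Prph, the most abundant, was at 18.7 ± 6.37 FPKM in the controls and 11.7 ± 2.92 FPKM after running (log2 fold change -0.63, limma adjusted p 0.179), and Uchl1 had a log2 fold change of -0.61 (adjusted p 0.393). Tubb3 averaged 0.833 ± 0.221 FPKM in the controls and rose to 3.17 ± 1.22 FPKM, by 1.42 on the log2 scale (limma adjusted p 0.0131). It was the only axon marker called, where 1.80% of all tested genes were called higher. Stmn2 did not pass (log2 fold change 1.16, limma adjusted p 0.172). The neurofilament genes Nefl and Nefm were under the filter, as were Snap25 and Scn9a. Whether axons held the Tubb3 transcripts was not tested. The Tubb3 call was lost with scaling to summed FPKM (adjusted p 0.0552). Of the remaining markers named by rule, Mitf and Pmel of melanocytes had log2 fold changes of 0.32 and -0.14, Egfl7 and Kdr of endothelium 0.75 and -0.40, Cd163 and Mrc1 of macrophages -1.09 and -0.61, Dcn and Comp of tendon fibroblasts 0.68 and 0.67, and Myh7 and Actn3 of muscle -3.42 and 1.76. Their lists were mixed, with 1 melanocyte gene higher and 1 lower, 1 endothelial gene higher and 6 lower, 4 macrophage genes higher and 4 lower, 7 tendon fibroblast genes higher and 3 lower, and 8 muscle genes higher and 2 lower. The muscle values hung on single libraries, with Actn3 between 0.83 (NC replicate 1 left out) and 2.84 (0 h p.r. replicate 4 left out) and Myh7 between -4.47 and -2.03 (0 h p.r. replicate 1 or 3 left out). With all 8 libraries none of the 10 named genes was called, and of them Egfl7 alone had a limma adjusted p under 0.05 (0.0270). The Egfl7 adjusted p was 0.0118 to 0.0950 with 1 library left out. It was 0.1031 with the replicate block and 0.1035 with scaling to summed FPKM. Cd163 was called when 0 h p.r. replicate 4 was left out (adjusted p 0.0373).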

How the data were processed

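Per the labels and the study's methods, stranded libraries were made from polyadenylated RNA. The authors aligned reads with HISAT2 2.1.0 to Rnor_6.0, counted them per gene with featureCounts 1.6.3 and normalized with DESeq2 1.30.1. The deposited table gives FPKM per gene and library, scaled between libraries by the authors. Its log2 fold change and p-value columns are the authors' deposited comparison and were not used. Groups and replicate numbers came from the sample titles.

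Whole reads were recovered from the FPKM steps for 15590 of 15590 genes, within 0.01 read, and summed as depth. They show counting precision only. Genes that reached 0.5 FPKM in 4 or more of the 8 libraries were tested with limma 3.58.1 in R 4.3.3 (trend, two-sided, no covariate), which left out 1727. The pseudocount of 0.5 understates the fold change of low genes. The fit was tested on simulated data. Python 3.11.15 was used for the rest. In the RefSeq annotation of GRCr8, S100b and Egfl8 overlap the ends of Dip2a and Agpat1, whose reads may not be separated.

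Members, lists and rules were chosen with earlier results of these data known. Named were the 8 genes, the called genes of each list and its 2 largest other differences (markers: the 2 largest), and the 5 genes most like the 8. Some list genes are not reported here. Ncmap, Cnp, Erbb3, Scn7a, Mog, Mlana, Idi1, Cyp51, Nab2, Prph, Uchl1, Pmp2 and the genes named only as under the filter were chosen after their values were seen. Alternatives were other pseudocounts, filters and scalings, the replicate number as a block, voom, and leaving out each library. Start sequences came from RefSeq.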

Additional observations from a re-analysis of the deposited data

Results flagged for a closer look

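Of the 8 genes in both groups, none had a library standing apart from the other 3 of its group. Among the called genes of the lists, a single library did so in 1 case, and chance gives about 1 in 20 of the 42 groups checked. The fat cell lipase gene Lpl was at 436 FPKM in NC replicate 1, above 188 to 231 in the other controls. That library also had the highest S100b value, 379 FPKM.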

How the results depend on the processing

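No setting other than leaving out a library called any of the 7 tested genes, and across those that left one out the count of called genes was 0 to 1, as was that at an adjusted p under 0.05 at any fold, S100b being the one (log2 fold change -1.01 when 0 h p.r. replicate 4 was left out, and -1.01 to -0.62 over the 8 fits). Cdh19 ran from -0.29 to 0.0065, changing sign without 0 h p.r. replicate 1. Over the fits without 1 library the log2 fold changes were 0.28 to 0.48 for Egfl8, -0.45 to -0.21 for Mbp, 0.38 to 0.58 for Pmp22, -0.28 to -0.15 for Prx and 0.21 to 0.42 for Sox10. As a ratio to Sox10 the difference was -1.12 for S100b, -0.52 for Cdh19, -0.64 for Mbp, 0.12 for Pmp22, -0.57 for Prx, -0.11 for Mag and 0.023 for Egfl8. These ratios use the pseudocount. On the plain ratio the difference of Prx was 0.012 against Erbb3. Scaling to summed FPKM moved the called genes from 374 to 171 and the called genes of the further lists from 3 to 2 (Ezr was lost), and ended those of Tubb3, Cldn1, Cidec and Lep (adjusted p 0.0549 to 0.0983). Leaving out a library gave 195 to 516 and 3 to 5 (5 for 0 h p.r. replicate 4, with Sox6 and Dhcr7, and 4 with Egr2 for 0 h p.r. replicate 1, as under quantile scaling), the number of called genes being 195 and 201 when 0 h p.r. replicate 2 or 3 was dropped and 217 for NC replicate 1. Pmel ran from -0.21 to 0.015, changing sign without NC replicate 2. The causes were not tested. Replicate numbers do not pair the rats, since same-numbered deviations had correlations of -0.14 to 0.072 and no control correlated best with its own number. With the replicate block 212 genes were called, none of the 7 and 3 of the further lists, and Tubb3, Cldn1, Cidec and Lep were not called (adjusted p 0.0634 to 0.0993).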

Other observations

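Genes whose pattern over the 8 libraries was most like the mean standardised level of the 7 tested genes were Bub1 (Pearson's r 0.94), AABR07048463.1 (0.93), Qprt (0.93), RGD1565498 (0.91) and Fgd2 (0.91), a description of 8 libraries with no test. The same mean was highest in 0 h p.r. replicate 2 (0.888) and lowest in NC replicate 3 (-0.618). It does not stand for each of the 7, whose r with it ran from 0.11 (S100b) to 0.77 (Mbp), with Prx at 0.32 and Pmp22 at 0.40.

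For single genes, the nearest patterns among all tested protein-coding genes were looked up after the data had been seen. Next after Ctsc (0.94), Mbp had an r of 0.93 with Ncmap, a small protein of the non-compact myelin sheath, followed by the lipid droplet gene Plin2 (0.91), Ubr7 (0.89) and Rgs17 (0.88). Ncmap itself was at 6.55, 8.36, 4.70 and 6.76 FPKM in NC and at 5.04, 9.35, 3.54 and 3.71 in 0 h p.r. (log2 fold change -0.34, limma adjusted p 0.556). Next after Actb (0.96) and AABR07029863.3 (0.95), Sox10 had an r of 0.94 with Scn7a, a sodium channel gene of non-myelinating Schwann cells, which was at 4.89, 4.66, 4.56 and 6.23 FPKM in NC and at 5.46, 9.58, 7.29 and 5.14 in 0 h p.r. (log2 fold change 0.37, adjusted p 0.322). In both genes post-run replicate 2 was highest, as in Sox10. S100b had its highest values of r with Rbp4 (0.99), the retinol carrier that fat cells release, Pex11a (0.99), Idh1 (0.99), Gm2a (0.98) and Casp9 (0.98), and no gene of the Schwann cell lists was among these 5. The 5 nearest to Pmp22 were Pisd (0.98), Cd164 (0.97), Card19 (0.96), Anxa1 (0.96) and Cfap20 (0.96), and among those nearest to Prx were Cdc25b (0.92), Poc5 (0.91), Grik4 (0.91) and Xpo4 (0.88), again with no gene of these lists.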
